A study of Saccharomyces cerevisiae with 10 samples.

Results

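The transcripts described here encode the tail and the kinase module of the yeast Mediator complex. They were taken by gene identifier and not by a cut on their values, with earlier results of these data known. They are 10 of the 6600 genes in the deposited table: 6 tail subunits (MED15, YOL051W; MED2, YDL005C; PGD1, YGL025C; SIN4, YNL236W; NUT1, YGL151W; RGR1, YLR071C) and 4 kinase module subunits (SSN2, YDR443C; SRB8, YCR081W; SSN3, YPL042C; SSN8, YNL025C). Polyadenylated RNA was sequenced from Saccharomyces cerevisiae of the S288C background fermenting white grape juice with supplements, in 5 strains with 2 fermentations each. In the med15 deletion (med15Δ) the MED15 gene is absent. WY7, WY15, WY23 and LAB are integrants that carry the MED15 allele of that name, and the genotype of LAB is given as wild type. Each 5 mL culture was collected at 35% weight loss, which came at 48 h in the deletion and at about 37 h in the 4 strains with a MED15 allele (the MED15 strains). How many transformants each strain stands for is not given in the sources used here. The p-values of the main fit rest on the spread between the 2 fermentations of a strain, pooled over the 5 strains.

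Mediator is the large complex that passes signals from DNA-bound transcription factors to RNA polymerase II. Its tail makes most of the contacts with activators, its head and middle bind the polymerase, and its kinase module attaches reversibly and can block that binding. Within the tail, Med15 (also called Gal11), Med2 and Pgd1 (Med3) form a triad that activators such as Gcn4, Gal4 and Pdr1 contact, Sin4 (Med16) and Nut1 (Med5) sit with it, and Rgr1 (Med14) is the scaffold that joins the tail to the rest of the complex. The kinase module consists of the Cdk8 kinase Ssn3, its cyclin Ssn8, and the large subunits Srb8 (Med12) and Ssn2 (Med13), of which Ssn2 tethers the module to the core.

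Med15 is known for long glutamine tracts, and the reference sequence shows where the 10 genes carry such runs. Runs of at least 8 consecutive glutamine or asparagine codons were found in 4 of the 10 genes of the S288C reference (RefSeq, R64 build). They are printed 5′ to 3′ on the coding strand, with the run in capitals and 4 flanking codons on each side in lower case. The coordinates cover the whole printed stretch, and each lies in the coding sequence of its gene, which is a single exon.
MED15 glutamine codons 147 to 158, chrXV:235366-235425, plus strand: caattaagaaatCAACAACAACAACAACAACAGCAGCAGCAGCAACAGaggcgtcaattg
MED15 glutamine codons 674 to 696, chrXV:236947-237039, plus strand: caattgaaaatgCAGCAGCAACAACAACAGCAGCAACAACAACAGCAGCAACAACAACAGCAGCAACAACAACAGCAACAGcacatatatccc
PGD1 glutamine codons 347 to 358, chrVII:448872-448931, minus strand: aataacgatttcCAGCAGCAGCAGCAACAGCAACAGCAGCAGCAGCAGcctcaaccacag
SSN2 glutamine codons 1126 to 1136, chrIV:1346519-1346575, minus strand: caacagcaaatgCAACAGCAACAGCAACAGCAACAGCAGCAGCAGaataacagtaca
MED2 asparagine codons 326 to 337, chrIV:441287-441346, minus strand: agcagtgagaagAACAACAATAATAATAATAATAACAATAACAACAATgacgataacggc

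The second MED15 run holds 23 glutamine codons, 13 CAA and 10 CAG. Of 5684 genes compared, 3 have a longer run. In all, 173 of the 1081 codons of MED15 encode glutamine, a share of 16%, against a median of 3.67% over these genes. PGD1 comes next among the 10 genes with 10.3%. MED2 differs in kind, since its long run encodes asparagine and 20.9% of its codons do so. The sequences of the WY7, WY15 and WY23 alleles were not used here.

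Library depth was even, at 22.7 to 29.3 M reads assigned to genes. Levels are given as normalized counts, the reads of a gene divided by 1 size factor per library, and they measure shares of the sequenced messenger RNA, not molecules per cell. The 9 genes other than MED15 had 842 to 9484 reads in a library, so counting error was at most 3.45% of a value (1 standard deviation, counting only). All 10 genes passed the filter of a mean of at least 10 normalized counts, as did 6065 of the 6600. Changes are log2 differences of normalized counts plus 1, with the standard error (SE) and the Benjamini-Hochberg adjusted p of limma over the 6065 genes; a gene with an adjusted p under 0.05 is called. The deletion libraries also hold URA3, with 3971 and 4037 reads against 0 in the other 8 libraries, and were collected later, so the loss of MED15, the marker and the harvest time cannot be told apart. Some low-oxygen genes varied within strains. The widest gap in their list was that of DAN1, a cell wall mannoprotein gene, with 6054 and 233 normalized counts in the 2 WY15 libraries. In the same libraries COX5B had 19310 and 18568, and CYC7 went the other way with 7607 and 10043. Results that could rest on such libraries are given without them where they change.

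MED15 (chrXV:234940-238185, plus strand, annotated as GAL11) checks the labels. Its transcript had 12.1 and 11.9 normalized counts in med15Δ (15 reads in each library), against 9497 and 8837 (WY7), 8521 and 8797 (WY15), 10571 and 10958 (WY23) and 8238 and 8844 (LAB). The deletion libraries are far below all others, and their mean was 709-fold under that of LAB. The log2 change against LAB was -9.35 (SE 0.08, limma adjusted p = 1.8e-10). MED15 made up 0.0436 to 0.0481% of the summed tail transcripts per kilobase in the deletion, against 18.4 to 24.9% in the 8 MED15 libraries.

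**Figure D1:**
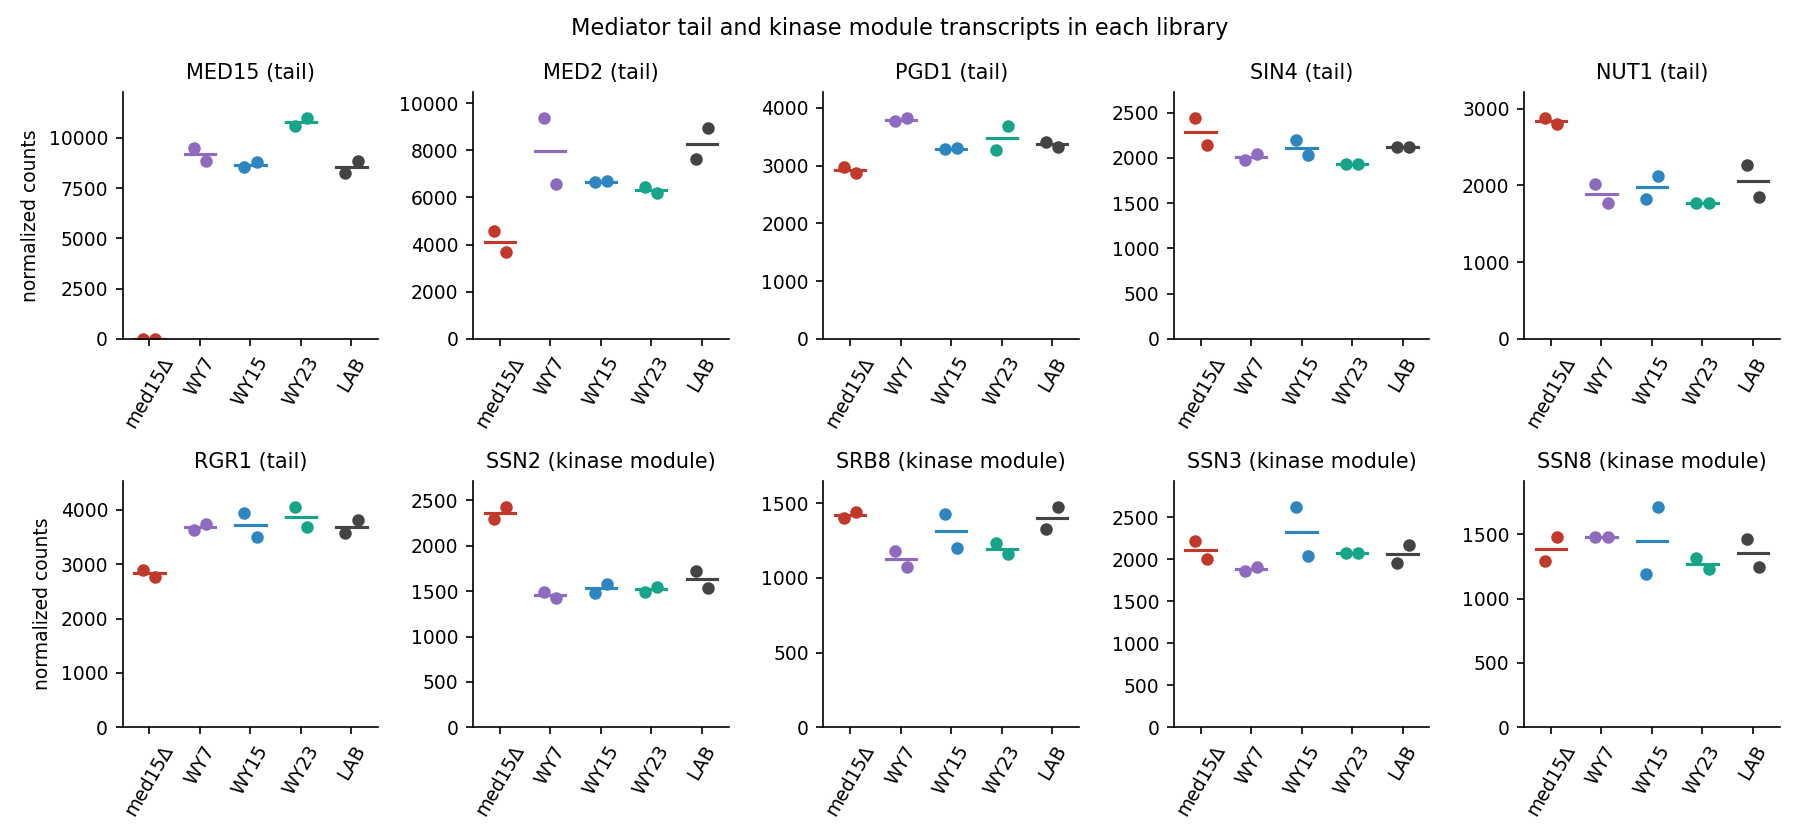
Normalized counts (vertical axes, each starting at 0) of the 10 genes in every library, by strain; points are libraries and bars are strain means (n = 2). The med15Δ points lie below those of the other 8 libraries for MED15, MED2, PGD1 and RGR1, above them for NUT1 and SSN2, and within their range for SRB8, SSN3 and SSN8; for SIN4 one med15Δ point is above the others and one is within their range.

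The first comparison asks which subunit transcripts differed when MED15 was absent. MED2, PGD1 and RGR1 fell and NUT1 and SSN2 rose against the mean of the 4 MED15 strains, while SIN4, SRB8, SSN3 and SSN8 did not pass the test. With MED15, 6 of the 10 genes were called (2 higher, 4 lower), beside 49.9% of all genes tested (25.6% higher, 24.3% lower). Without MED15, whose fall is set by the deletion, it was 5 of 9 (2 higher, 3 lower). The count is therefore near the background. Against LAB alone, 5 of the 10 were called (2 higher, 3 lower), beside 36.6% of all genes (18.9% higher, 17.7% lower). Leaving out MED15 gave 4 of 9 there (2 higher, 2 lower). The 2 comparisons share the deletion and LAB libraries. Without LAB replicate 1 and WY15 replicate 2, the libraries in which low-oxygen genes were lowest, the counts were again 6 against the mean of the 4 strains and 5 against LAB. The median log2 change over the 10 genes was 0.01 against the mean of the 4 strains, where it was -0.01 over all genes tested. Their median absolute change of 0.33 stood beside 0.31 over all genes. Without MED15 it was 0.25.

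MED2 (chrIV:441014-442309, minus strand) encodes the triad subunit that binds activators together with Med15. It had 4555 and 3684 normalized counts in med15Δ, against 9350 and 6568 (WY7), 6638 and 6681 (WY15), 6451 and 6184 (WY23) and 7621 and 8935 (LAB). Both deletion libraries lie under all 8 others, although the 8 spread over a 1.51-fold range. The log2 change was -0.82 against the mean of the 4 MED15 strains (SE 0.14, limma adjusted p = 0.0018) and -1.01 against LAB (SE 0.18, limma adjusted p = 0.0032). The second is a level 0.497 times that of LAB, with a 95% interval of 0.375 to 0.658. Among the 9 genes other than MED15 this was the largest change in either comparison.

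PGD1 (chrVII:448764-449957, minus strand), the third gene of the triad, had 2978 and 2865 normalized counts in med15Δ. The MED15 strains had 3778 and 3818 (WY7), 3280 and 3312 (WY15), 3274 and 3691 (WY23) and 3415 and 3331 (LAB). The deletion libraries lie just under the lowest of the 8 others. The log2 change of -0.25 against the mean of the 4 strains passed (SE 0.07, limma adjusted p = 0.014), and that of -0.21 against LAB did not (SE 0.08, limma adjusted p = 0.088). The first call was lost without deletion replicate 1 (limma adjusted p = 0.057) or replicate 2 (limma adjusted p = 0.11).

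The scaffold gene RGR1 (chrXII:275378-278626, minus strand) had 2888 and 2772 normalized counts in med15Δ, against 3622 and 3733 (WY7), 3945 and 3492 (WY15), 4051 and 3688 (WY23) and 3564 and 3806 (LAB). The groups do not overlap, and the 4 MED15 strains overlap each other. The log2 change was -0.40 against their mean (SE 0.07, limma adjusted p = 0.0028) and -0.38 against LAB (SE 0.09, limma adjusted p = 0.015). The call against LAB was lost without LAB replicate 2 (limma adjusted p = 0.077) or deletion replicate 2 (limma adjusted p = 0.080).

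NUT1 (chrVII:217524-220922, plus strand) went the other way within the tail. It had 2871 and 2793 normalized counts in med15Δ, against 2011 and 1765 (WY7), 1826 and 2123 (WY15), 1769 and 1773 (WY23) and 2268 and 1849 (LAB). Both deletion libraries exceed all 8 others. The log2 change was 0.56 against the mean of the 4 strains (SE 0.10, limma adjusted p = 0.0020) and 0.47 against LAB (SE 0.12, limma adjusted p = 0.020). The call against LAB was lost without LAB replicate 2 (limma adjusted p = 0.11), without deletion replicate 1 (limma adjusted p = 0.086) and without deletion replicate 2 (limma adjusted p = 0.070).

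SIN4 (chrXIV:206930-209854, plus strand), whose product neighbours the triad, had 2435 and 2142 normalized counts in med15Δ, against 1978 and 2043 (WY7), 2195 and 2028 (WY15), 1933 and 1937 (WY23) and 2123 and 2116 (LAB). One deletion library is above all others and the other falls among them. The log2 change of 0.16 against the mean of the 4 strains (SE 0.07, limma adjusted p = 0.091) and of 0.11 against LAB (SE 0.09, limma adjusted p = 0.38) did not pass.

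In the kinase module 1 of 4 genes was called in either comparison, beside 49.9% of all genes against the mean of the 4 strains and 36.6% against LAB. With equal sums, where the median of all genes moves up, 4 of 4 were called against the mean of the 4 strains and 3 of 4 against LAB, all higher. On that scale 4171 of the 6065 genes were called against the mean of the 4 strains (3674 higher). Against LAB it was 3296 (2871 higher). SSN2 (chrIV:1345676-1349938, minus strand), the gene of the tethering subunit, had 2299 and 2426 normalized counts in med15Δ, against 1491 and 1419 (WY7), 1479 and 1583 (WY15), 1492 and 1546 (WY23) and 1724 and 1538 (LAB). The deletion libraries are well apart from the 8 others, whose highest value is 1724. The log2 change was 0.62 against the mean of the 4 strains (SE 0.07, limma adjusted p = 0.00024) and 0.54 against LAB (SE 0.09, limma adjusted p = 0.0027). The first is a level 1.54 times that of the MED15 strains, with a 95% interval of 1.38 to 1.73. SSN2 and MED2 were called under every alternative tried in both comparisons.

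The other 3 kinase module genes were not called. SRB8 (chrIII:254371-258654, plus strand), which encodes the other large subunit, had 1399 and 1444 normalized counts in med15Δ, against 1074 to 1475 in the 8 MED15 libraries. Its log2 change was 0.18 against the mean of the 4 strains (95% interval -0.02 to 0.38) and 0.02 against LAB (-0.23 to 0.28). SSN3 (chrXVI:473040-474707, minus strand), the kinase gene, had 2212 and 2004 in the deletion and 1859 to 2622 in the 8 others. Its log2 change was 0.02 against the mean of the 4 strains (95% interval -0.21 to 0.25). SSN8 (chrXIV:584320-585291, minus strand), the cyclin gene, had 1293 and 1476 in the deletion and 1188 to 1712 in the 8 others, with a log2 change of 0.00 (95% interval -0.30 to 0.31). For all 3 the deletion lies within the range of the other libraries, and the intervals against the mean of the 4 strains reach up to 0.25 (SSN3), 0.31 (SSN8) and 0.38 (SRB8).

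**Figure D2:**
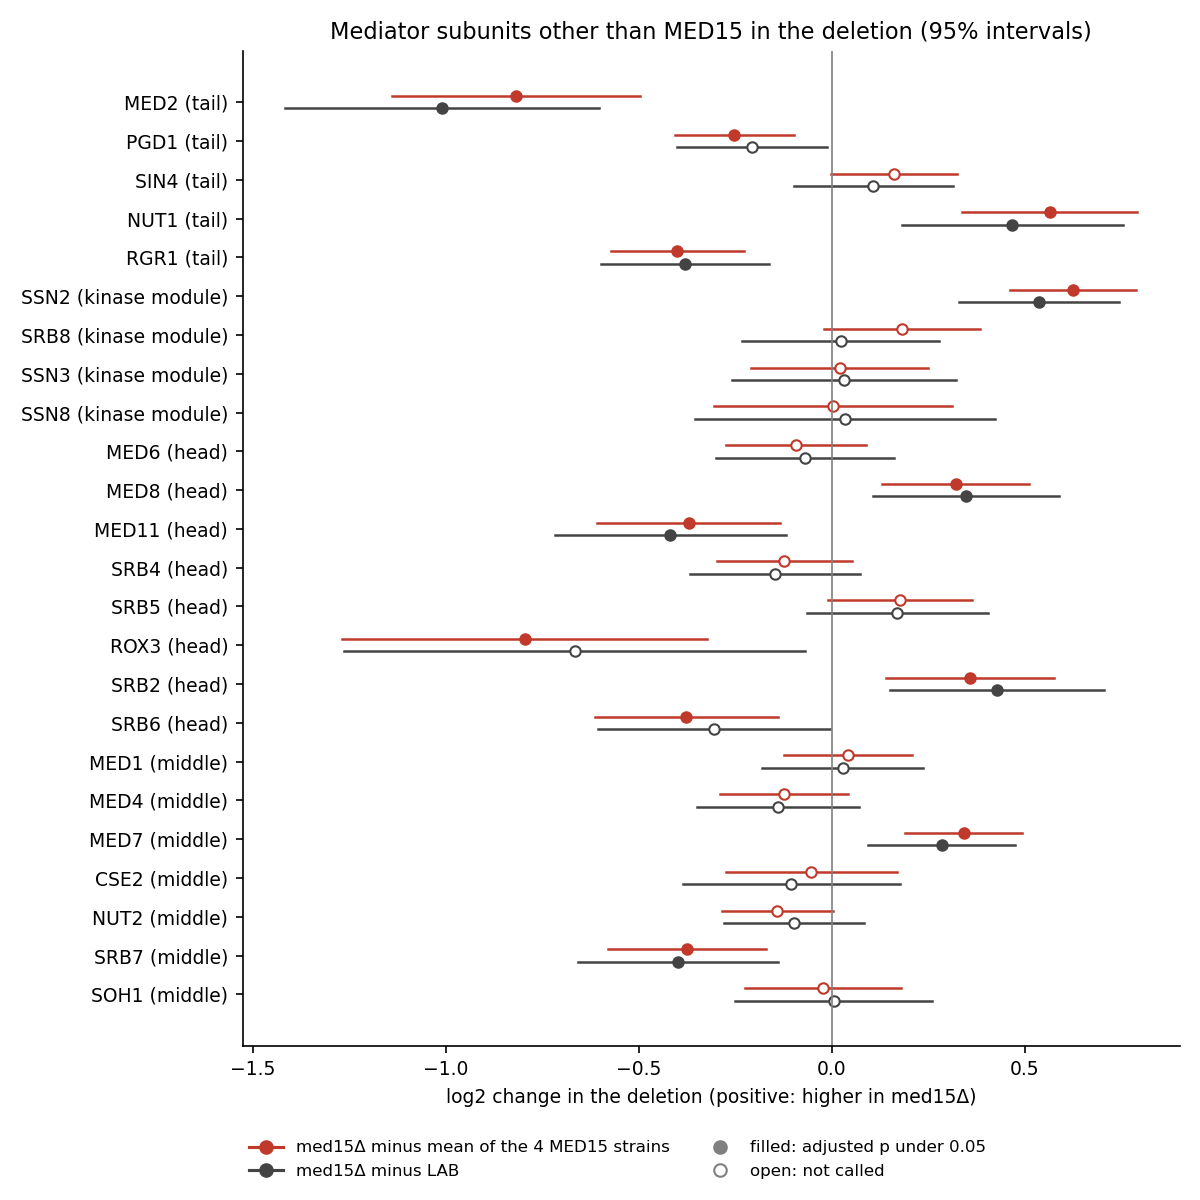
Log2 change of the 24 Mediator subunit transcripts other than MED15 (horizontal axis, with 95% intervals of the fit; positive is higher in med15Δ), against the mean of the 4 MED15 strains and against LAB. Filled points are called. MED2 lies farthest to the left at -1.01 and -0.82, and SSN2 farthest to the right at 0.62 against the mean of the 4 strains.

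Both deletion libraries lay outside the range of the 8 MED15 libraries for 6 of the 10 genes (2 above, 4 below), beside 51.9% of all genes tested (26.6% above, 25.3% below). These were the 6 called genes: NUT1 and SSN2 above, and MED15, MED2, PGD1 and RGR1 below. Summed per kilobase of coding length, the 5 tail transcripts other than MED15 came to 2.11 and 2.43 times the kinase module sum in the deletion, against 2.84 to 3.92 times in the 8 others. MED2 was the largest part of that tail sum. Its mean was 3179 of 8112 in the deletion and 5635 of 10971 in the 8 others, so the ratio follows this gene most. The transcripts of all 25 Mediator subunits took 0.224 to 0.227% of the reads in the deletion and 0.215 to 0.240% in the 8 others. These total shares overlapped, but they include MED15. It alone took 6e-05% of the reads in the deletion and 0.0299 to 0.0379% in the 8 others. Without MED15, the share of the remaining subunits was higher in both deletion libraries than in the 8 others, while single subunits moved both ways. Shares of reads set libraries to equal sums, where the median log2 change of all genes was itself 0.40 against the mean of the 4 strains. In normalized counts per kilobase, the tail sum without MED15 was lower in the deletion (7649 and 8575, against 10148 to 12762). The head sum was lower too (22062 and 24850, against 27805 to 35694), and the middle and kinase module sums overlapped.

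The direction of the smaller changes depended on the scaling. The deposited normalized counts sum to 20.8 to 20.9 M in the deletion libraries and to 25.9 to 29.5 M in the others. When libraries were set to equal sums, the median log2 change of all genes moved to 0.40 against the mean of the 4 strains and to 0.36 against LAB. PGD1 then had a log2 change of 0.16 and RGR1 of 0.01 against the mean of the 4 strains, both not called, and MED2 of -0.41, still called. Counts of the 10 genes were 6 higher and 2 lower on that scale, beside 3674 higher and 497 lower of all genes, in place of 1554 and 1473. Relative to the median of all genes, MED2, PGD1 and RGR1 were lower and NUT1 and SSN2 higher on the deposited scale and with quantile normalization. Equal sums and TMM gave the same directions, but they multiply each whole library by a constant. A change relative to that median therefore stays nearly the same by construction, and these scales are not separate checks of it.

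**Figure D3:**
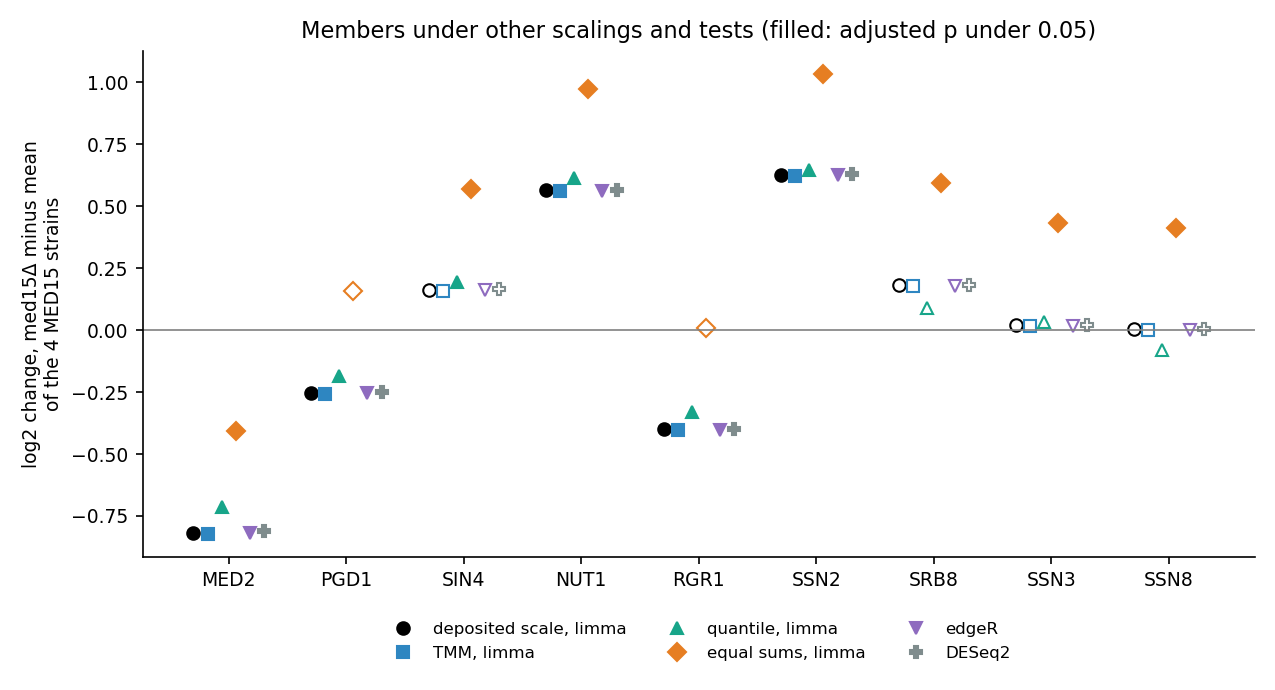
Log2 change against the mean of the 4 MED15 strains (vertical axis; positive is higher in med15Δ) of the 9 genes other than MED15 under 4 scalings with limma and under edgeR and DESeq2; filled symbols are called. Equal sums lies above the other symbols for every gene, while MED2 stays below 0 and NUT1 and SSN2 above 0 throughout.

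The rest of the complex is given for comparison, from lists of its subunits. Of the 8 head genes, MED8 (log2 change 0.32) and SRB2 (0.36) rose, and ROX3 (-0.80), SRB6 (-0.38) and MED11 (-0.37) fell in the deletion against the mean of the 4 strains. Of the 7 middle genes, MED7 rose (0.34) and SRB7 fell (-0.37). The called counts, 5 of 8 and 2 of 7, stand beside 49.9% of all genes (25.6% higher, 24.3% lower). The median log2 change was -0.11 in the head and -0.05 in the middle, beside 0.10 in the kinase module. In the tail it was -0.33 with the deleted MED15 and -0.25 without it. With equal sums the calls were 5 higher and 0 lower in the head and 6 higher and 0 lower in the middle. All genes tested then had 3674 higher and 497 lower. Quantile normalization gave 0 higher and 3 lower in the head and 1 higher and 4 lower in the middle. All genes tested then had 1550 higher and 1513 lower. ROX3 had 5422 and 7137 normalized counts in the deletion and 8065 to 13980 in the 8 others. Its lowest values among the 8 were in WY15 replicate 2 and LAB replicate 1, the libraries in which the low-oxygen genes were also lowest, and the part of those genes in this result was not tested.

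Lists of genes whose products work with the tail are given in the same way, beside 49.9% of all genes called (25.6% higher, 24.3% lower). Called shares of 6 of 12, 5 of 13 and 4 of 10 genes are near or under it. The counts with equal sums stand beside 3674 higher and 497 lower of the 6065 genes on that scale. Of the 12 RNA polymerase II subunit genes, 0 rose and 6 fell against the mean of the 4 strains, led by RPB4 (-0.64), RPB7 (-0.56), RPB3 (-0.53) and RPB9 (-0.51); the 2 most abundant that did not pass, RPO21 and RPB2, encode the large subunits and had 0.16 and -0.14. With equal sums this became 6 higher and 0 lower. Of 13 genes of SAGA, the coactivator that modifies histones at many of the same promoters, SPT7 rose (log2 change 1.47, SE 0.11, limma adjusted p = 3.8e-05). SGF11 (-0.77), ADA2 (-0.30), GCN5 (-0.29) and SGF29 (-0.29) fell, where equal sums gave 9 higher and 1 lower. Of 10 genes of activators and regulators that work with the tail, STE12 (0.56), PDR3 (0.45) and GAL4 (0.36) rose and PHD1 (-0.63) fell, against 5 higher and 0 lower with equal sums.

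The second comparison asks whether the WY alleles differ from LAB in these transcripts. No gene was called in WY7, WY15 or WY23 against LAB (0 of 10 and 0.0% of the 6065 tested in each), nor in the test for any difference among the 4 alleles (0.0%). At an unadjusted p under 0.05, limma had 285 genes for WY7, 350 for WY15 and 560 for WY23, with 491 in the test for any difference. Among the 10 genes these were SRB8 in WY7 and MED15 in WY23 and in the test for any difference. edgeR also called 0 genes. DESeq2 called 17 genes in WY7, 4 in WY15, 61 in WY23 and 158 in the test for any difference, and of the 10 genes it called MED15 in WY23.

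MED15 was highest in WY23. Its 2 values there, 10571 and 10958 normalized counts, exceed the other 6 of the MED15 strains, and WY7, WY15 and LAB lie between 8238 and 9497. The log2 difference of WY23 from LAB was 0.33 (SE 0.08, 95% interval 0.15 to 0.52), which did not pass over all genes with limma (adjusted p = 0.53; 0.023 with DESeq2). It was 0.10 in WY7 (-0.08 to 0.29) and 0.02 in WY15 (-0.17 to 0.21). The upper end of the WY23 interval is a level 1.43 times that of LAB. MED15 is the gene whose allele differs among these strains, and the only builds named for the processing are sacCer3 and R64. Whether the allele sequence affects its read count was not tested.

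MED2 had the widest intervals of the 10 genes. Its log2 difference from LAB was -0.07 in WY7 (95% interval -0.48 to 0.33), -0.31 in WY15 (-0.72 to 0.10) and -0.39 in WY23 (-0.79 to 0.02). Both libraries of WY15 and of WY23 lie under both of LAB, while those of WY7, 9350 and 6568, lie on either side. That gap in WY7, a log2 of 0.51, is larger than the replicate difference of 92.8% of genes in that strain.

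SRB8 was lowest in WY7, with 1178 and 1074 normalized counts against 1326 and 1475 in LAB, a log2 difference of -0.31 (95% interval -0.57 to -0.06, limma adjusted p = 0.98). In WY23 it had 1233 and 1160, a difference of -0.23 (-0.48 to 0.03). The 2 libraries of a WY strain lay wholly to one side of LAB for 6 of the 10 genes in WY7, beside 31.0% of all genes, for 2 in WY15, beside 28.4%, and for 5 in WY23, beside 47.0%. In WY7 these were PGD1 and SSN8 above LAB, and SIN4, SSN2, SRB8 and SSN3 below it. In WY23 they were MED15 above, and MED2, SIN4, NUT1 and SRB8 below.

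**Figure D4:**
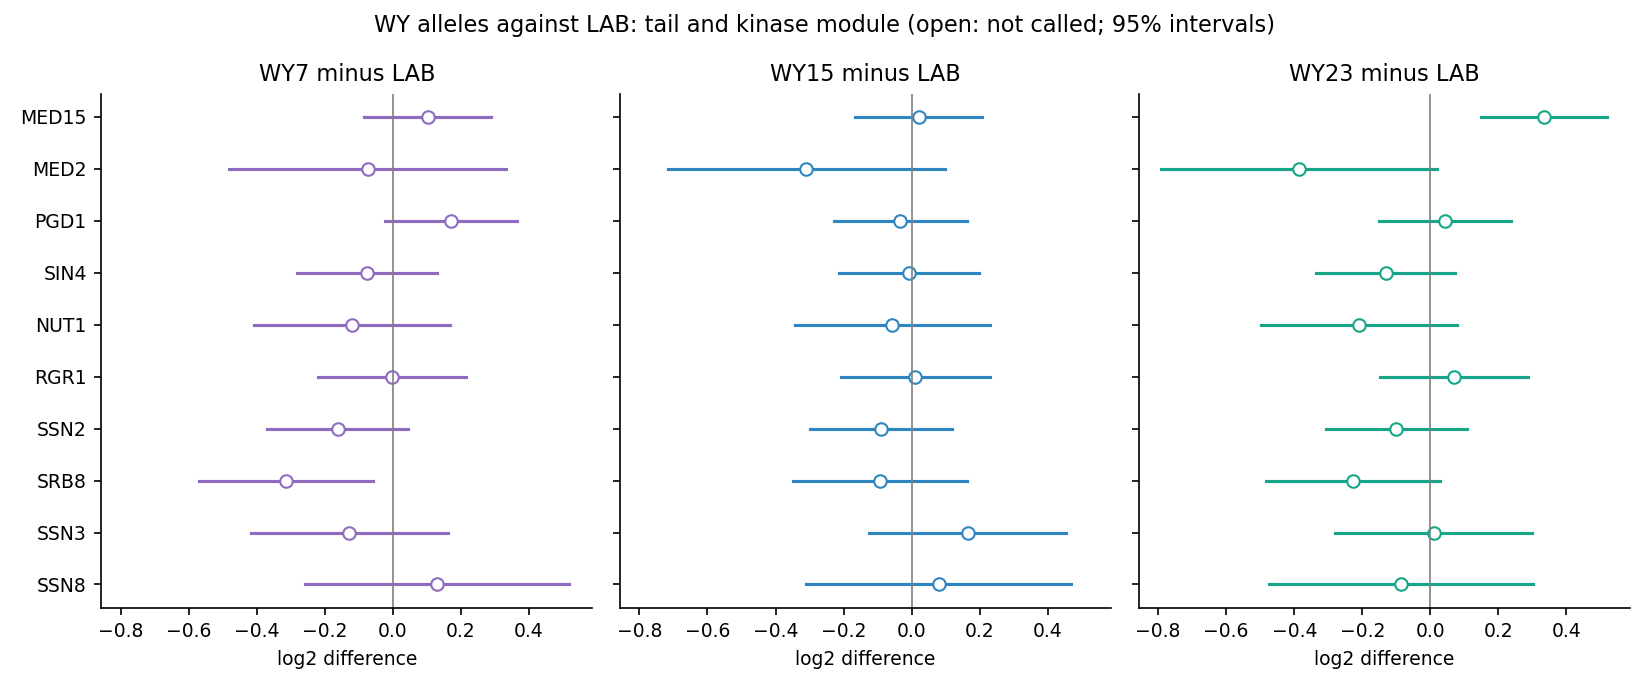
Log2 difference from LAB (horizontal axes, with 95% intervals of the fit; positive is higher in the WY strain) of the 10 genes in WY7, WY15 and WY23. No point is called; MED15 in WY23 (0.33) and SRB8 in WY7 (-0.31) have intervals that leave out 0.

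Levels of different genes are compared per kilobase of coding length. In the 8 MED15 libraries MED2 led with a mean of 5635 normalized counts per kilobase (range 4772 to 7214), and its range lay above that of all other tail and kinase genes. PGD1 (2921) and MED15 (2860) followed with overlapping ranges. SSN8 (1428), SSN3 (1251) and RGR1 (1150) came next, each overlapping its neighbour in the order, then SIN4 (699) and NUT1 (566), which overlap. The 2 large kinase module genes were lowest, SSN2 at 360 and SRB8 at 294, with overlapping ranges. Within the kinase module the ranges of SSN8 and SSN3 lie wholly above those of SSN2 and SRB8. In the deletion the order began with MED2 (3179), PGD1 (2447), SSN8 (1425) and SSN3 (1264). There RGR1 (871), NUT1 (833) and SIN4 (782) drew together, and SSN2 stood at 554 against 332 for SRB8, with ranges apart. Within each MED15 strain both SSN2 values also lay above both SRB8 values, and their ranges overlap only over the 8 libraries together.

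**Figure D5:**
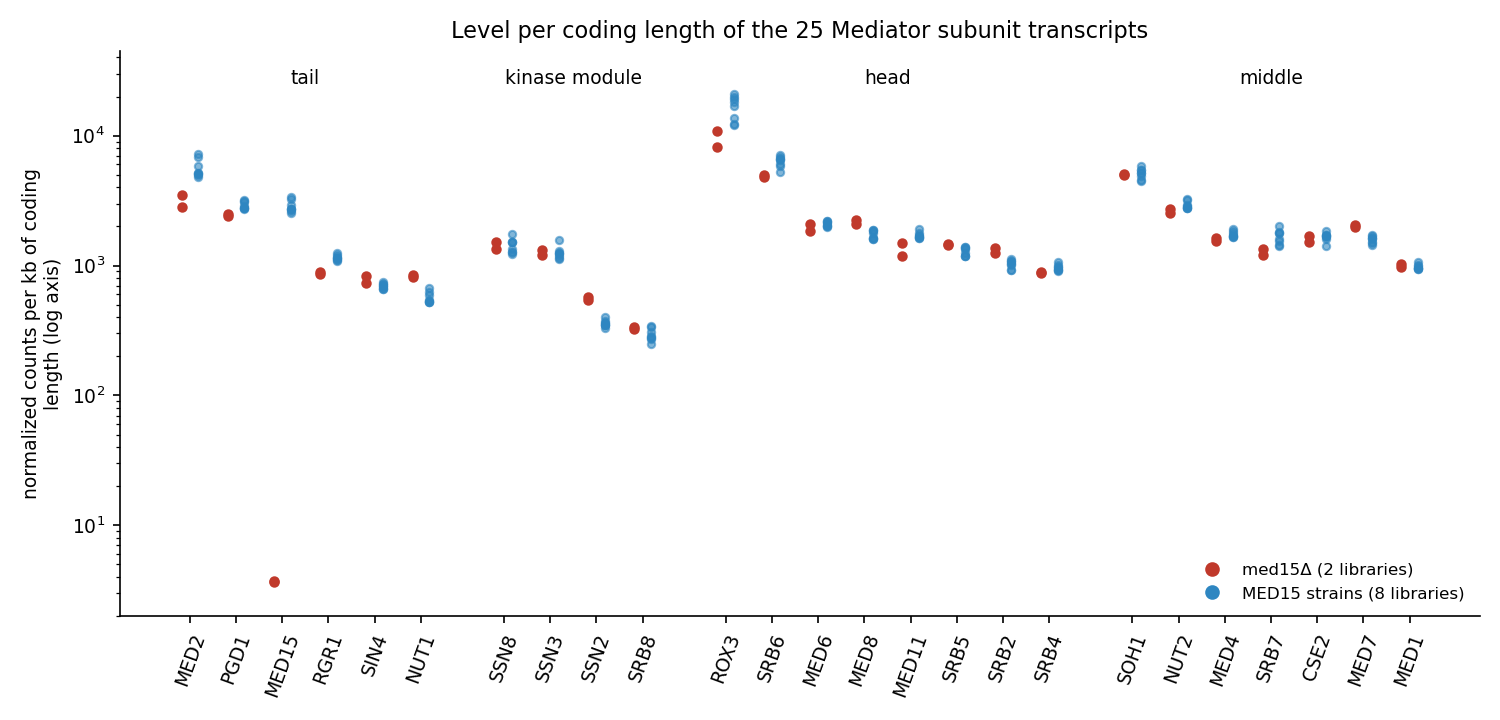
Normalized counts per kilobase of coding length (vertical log axis) of the 25 Mediator subunit transcripts by module, in the 2 med15Δ libraries and the 8 MED15 libraries. Within the tail MED2 is highest in both, and within the kinase module SSN2 and SRB8 are lowest.

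Patterns over libraries were compared with those of 5131 other named genes with a mean of at least 50 normalized counts, as a description. Over the 8 MED15 libraries, which share strains in pairs, the genes most like MED15 were BOL2 (Pearson r = 0.97), LDS2 (0.95) and RHO1, the gene of a GTPase of cell wall synthesis (0.93). LDS2 lies on the same chromosome as MED15, 3428 bp away at chrXV:241614-242747. SSN2 was taken as the gene other than MED15 with the largest change relative to its SE against the mean of the 4 strains (MED2 had the larger log2 change), and over all 10 libraries its closest genes were GRS2, which encodes a glycyl-tRNA synthetase (0.99), MIP6 (0.99) and RBH2 (0.98). The deletion libraries stand apart for all of these, and within the 8 MED15 libraries the values were 0.90 for GRS2, 0.87 for MIP6 and 0.81 for RBH2.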

How the data were processed

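The deposited table holds, per gene and library, a signal that the authors made by dividing read counts by 1 DESeq2 size factor per library. Tools named in the submitters' processing notes are featureCounts, Bowtie2, Trim Galore and DESeq2, with the builds sacCer3 and R64; their versions and settings, and whether strand was counted, are not stated in what was available here. Every value was a whole multiple of its library's smallest step (within 1e-06), so reads were recovered for depth and for the count tests. For the second WY15 library that step is nearly 1, so whole numbers show less there. Gene names and positions came from the R64 annotation, which matched 5917 of 6600 identifiers. No tail or kinase gene overlaps another gene of that annotation. Overlap with the 683 identifiers it lacks was not checked, nor was its effect on the counts.

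The genes and lists were chosen with earlier results of these data known. All 10 genes are named. From each comparison list at most 4 called genes were named, by size of change, with at most 2 abundant uncalled ones; where a count was 5 or fewer its other genes were named after their values were seen.

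Values were tested with limma (version 3.58.1, under R 4.3.3) as log2 of the value plus 1, after a filter of a mean of 10 or more. A single fit of the 5 strain means had 5 residual and 3.05 prior degrees of freedom, with a trended variance. Tests were two-sided and adjusted over all 6065 genes in each comparison, and the procedure was tested on simulated data. Alternatives were edgeR 4.0.16 and DESeq2 1.42.0 on the recovered reads, pseudocounts of 0.5 and 10, no filter or a mean of 50 or more, 3 other scalings, only the strains compared, each library left out, 2 pairs of libraries left out, and a replicate block.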

Additional observations from a re-analysis of the deposited data

How the results depend on the processing

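With each of the 10 libraries left out in turn, the deletion against LAB called 1480 to 2500 genes (2219 with all) and 3 to 5 of the 10 genes (5 with all), with 3 both without LAB replicate 2 and without deletion replicate 2. Against the mean of the 4 MED15 strains it called 2075 to 3279 genes (3027 with all) and 5 to 7 of the 10. With only the strains compared in the fit, 3 of the 10 passed against LAB; NUT1 (adjusted p = 0.055) and RGR1 (0.052) were lost, and RGR1 was also lost with equal sums (log2 change -0.02). Against the mean of the 4 strains, equal sums turned PGD1 to 0.16 and RGR1 to 0.011, and added calls for SIN4, SRB8, SSN3 and SSN8. Quantile normalization added SIN4 (0.19). SRB8 passed without WY15 replicate 1 (0.21), and without that library and LAB replicate 2 (0.23).

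For the WY strains against LAB, DESeq2 called 17 genes in WY7, 4 in WY15 and 61 in WY23, with 1 of the 10 genes in WY23, and 158 genes in the test for any difference, where limma had 0 in each. Without LAB replicate 1 and WY15 replicate 2, limma called 2 genes in WY15 and 2 for any difference; without LAB replicate 2 and WY15 replicate 1 it called 4 in WY23 and 28 for any difference. None of these limma calls is among the 10 genes. The cause was not tested.

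Replicate numbers do not pair the samples: of 10 correlations of within-strain differences, 3 exceed 0.1 (range -0.50 to 0.41). With a replicate block, 2051 genes and 5 of the 10 were called against LAB, and 2888 genes and 6 of the 10 against the mean of the 4 strains. Of 1126 log2 changes recomputed, 1103 kept their side of the threshold and, where called, their direction. This total includes the WY strains against LAB, where limma with all libraries called none of the 10 genes. Among those only MED15 in WY23 with DESeq2 changed. Every other change of label was in the deletion comparisons, so the total overstates how stable those are. Depth limits MED15 in the deletion most, where it rests on 15 reads a library.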

Other observations

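The nearest annotated genes on either side of the 10 genes were also read from the same fit, as values. Of 18 such neighbours in the table, 4 rose and 8 fell in the deletion against the mean of the 4 MED15 strains (66.7% called, beside 49.9% of all genes tested). GSH2, the gene after MED15, had 2657 and 2614 normalized counts in the deletion and a log2 change of 0.24 (limma adjusted p = 0.14). ATP16, next to MED2, and PEX14, next to NUT1, were picked after their values were seen. ATP16 rose (log2 change 1.02, SE 0.08) where MED2 fell. PEX14 fell (-0.83, SE 0.10) where NUT1 rose.

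YOL050C, the table row that follows MED15 and has no entry in the annotation used, was likewise picked after its values were seen. It had 86 and 86 reads in the deletion, against 4 and 4 (WY7), 0 and 2 (WY15), 3 and 1 (WY23) and 10 and 11 (LAB). It passed the filter on low values through the deletion libraries, so no test is given for it.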
